A study of Mus musculus with 308 samples.

Results

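The kidney response to dimethyl fumarate (DMF) given together with monoethyl fumarate (MEF) salts was set against the sum of the responses to each given alone. The comparison used every kidney array of 4 title groups, 30 of the 308 arrays of the series. The combination group received both agents, DMF at 100 mg/kg and the MEF salts at 79.2 mg/kg, and had 8 arrays. The same dose of DMF alone (DMF100) had 8 arrays, the same dose of the salts alone (MEF79.2) had 7 and vehicle had 7. For each gene the departure from additivity was the combination mean minus the DMF100 mean minus the MEF79.2 mean plus the vehicle mean, on the log2 scale. A departure of 0 means that the fold changes of both single treatments multiply in the combination. A negative departure means a combination level below that product, and a positive one a level above it.

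All mice were C57BL/6, carried no stated genetic change and were dosed once daily for 10 days, with tissue taken 12 h after the last dose. Vehicle was hydroxypropyl methylcellulose, the MEF was a mixture of calcium, magnesium and zinc salts, and no sex or age is used here. Groups were taken from the titles, because the source label of the combination arrays reads the same as that of the DMF100 arrays. The series text does not name kidney among its tissues, while the titles and the tissue label of these arrays do. It counts mice per dose group, so the arrays are read as separate mice, and p-values measure the spread between these arrays. A 2nd DMF dose, 179.2 mg/kg (8 arrays), and a group titled Nav (8 arrays), whose name the labels do not explain, completed the 46 kidney arrays. In bulk kidney, fewer cells of a type and less RNA per cell cannot be told apart.

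DMF and MEF are esters of fumarate that differ in how many of the acid groups carry an alkyl group, and in which one. Fumarate esters react with cysteines of KEAP1, the protein that marks the transcription factor NRF2 for degradation, and NRF2 then drives genes of quinone reduction, glutathione conjugation and NADPH supply. The kidney tubule handles zinc, calcium and magnesium through dedicated transporters and tight junction proteins. Because the doses of the esters differ, their single effects are given side by side and not ranked.

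Defining markers of kidney were high. The 6 measured of 8 proximal tubule markers had summed levels between 14.87 and 15.11 in combination kidneys, 14.98 and 15.10 in DMF100, 14.94 and 15.09 in MEF79.2 and 15.03 and 15.12 in vehicle (log2 of the summed values). The T cell markers lay between 7.06 and 7.72 over the same arrays, with 1 of 5 at the lowest value throughout. Of 7 adrenal cortex markers, 4 sat at the lowest value of the table in every array and 2 passed the filter for testing. Their summed levels, over all 7, lay between 7.26 and 7.57 in the same arrays. Array medians ran from 5.02 to 5.15 over all kidney arrays.

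Few departures from additivity were called, and most of those called were under 1.5-fold. Of 10706 genes tested, limma called 126 (1.18%; Benjamini-Hochberg adjusted p, threshold 0.05), 65 with a positive departure (0.607%) and 61 with a negative one (0.57%). At an unadjusted p under 0.05 there were 1393 genes. The median departure of all genes tested was 0.003, and the 5th and 95th percentiles were -0.21 and 0.26. Among the called genes the median size was 0.41, from 0.20 to 1.80, and 36 departed at least 1.5-fold, 19 above and 17 below the sum. With the median standard error of 0.089, a departure of 0.33 passes the test.

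Against vehicle, the combination called 3245 genes (30.3%), DMF100 called 866 (8.09%) and MEF79.2 called 1520 (14.2%). Set directly against the single treatments, the combination called 1566 genes relative to DMF100 (14.6%) and 50 relative to MEF79.2 (0.467%), of which 43 were higher (0.402%) and 7 lower (0.0654%). These comparisons share arrays with each other and with the departure.

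The called genes shared a shape. Of the 61 negative departures, 60 had both single treatments above vehicle. Among those 60, the combination lay beyond both singles in 16, between them in 8, nearer vehicle than both in 27 and on the other side of vehicle in 9. Of the 65 positive departures, 64 had both singles below vehicle, and the combination lay beyond both in 0, between them in 2, nearer vehicle than both in 46 and on the other side of vehicle in 16. The vehicle mean enters the departure and each single effect with opposite signs, so these counts describe the genes and test nothing.

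**Figure D1:**
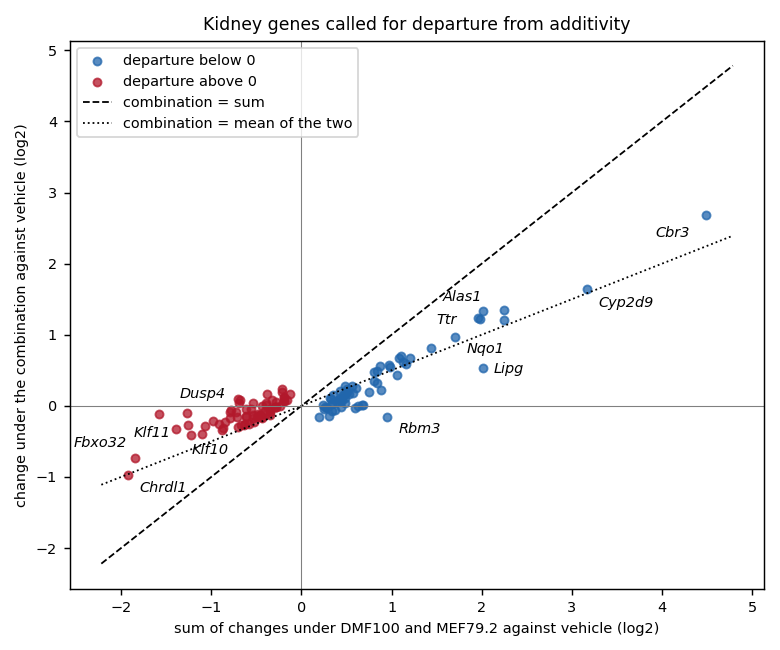
Each point is 1 of the 126 called kidney genes. The x axis is the sum of its log2 changes under DMF100 and MEF79.2, and the y axis its log2 change under the combination, each against vehicle. Genes with a positive departure (red, 65) lie above the dashed line of equality and genes with a negative departure (blue, 61) below it, with Cbr3 farthest from it at a departure of -1.80. The dotted line is the mean of both single changes.

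The 3 negative departures with the smallest p, those of Cbr3, Gstm1 and Gstp1, were all NRF2 targets. Of 43 members tested, 11 were called below the sum and 0 above it, against 0.57% and 0.607% of all genes. Estimates were below 0 for 37 of 43 members, against 48.7% of all genes. The list's median departure was -0.13, while its median changes against vehicle were 0.45 in the combination, 0.30 under DMF100 and 0.30 under MEF79.2. The 11 called members were Cbr3, Nqo1, Pir, Pgd, Abcc4, Gstp1, Gsta4, Gstm1, Abcc2, Gclm and Slc48a1. The count depended on the scale. Fitted on unlogged values, where single increases add instead of multiplying, 7 of the 43 members were called below the sum and 0 above it. The list's median departure there was -0.08 times the vehicle level. Of the 126 genes called on the log2 scale, 100 were called on both scales. The list was chosen with earlier results of these data known.

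Cbr3, a carbonyl reductase on chromosome 16, showed the largest departure of the 126. Its lowest, median and highest log2 levels were 8.35, 8.75 and 9.10 in combination kidneys, 7.75, 8.29 and 8.65 in DMF100, 7.95, 8.38 and 8.57 in MEF79.2 and 5.61, 6.17 and 6.27 in vehicle. All treated arrays lay above all vehicle arrays, while the treated groups overlapped each other. Cbr3 was 6.43-fold higher than vehicle in the combination, 4.71-fold under DMF100 and 4.76-fold under MEF79.2. The departure was -1.80 ± 0.19 (SE, limma adjusted p = 2.65e-08, 95% interval -2.18 to -1.42), and the combination level was 0.287 times the product of the single effects. The combination still exceeded DMF100 by 0.45 (adjusted p = 0.0149), and its excess over MEF79.2 of 0.43 was not called (adjusted p = 0.138). Fitted on unlogged values, where single increases add instead of multiplying, the combination stood at 6.51 times the vehicle level against a sum of 8.61 times, and the call was lost (adjusted p = 0.0529).

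Nqo1, the quinone reductase used as a standard readout of NRF2 activity, showed the same pattern. Its lowest, median and highest levels were 10.61, 10.86 and 11.21 in combination kidneys, 10.49, 10.76 and 10.92 in DMF100, 10.62, 10.80 and 10.96 in MEF79.2 and 9.73, 9.92 and 10.06 in vehicle. The 3 treated groups overlapped and lay wholly above vehicle. Nqo1 departed by -0.74 ± 0.12 (SE, limma adjusted p = 0.000188). The combination reached 56.6% of the summed log2 change and was not called apart from DMF100 (0.15, adjusted p = 0.21) or MEF79.2 (0.08, adjusted p = 0.756).

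Glutathione transferases, which couple glutathione to electrophiles in detoxification, departed by less and with small errors. Gstm1, of the mu class, had lowest, median and highest levels of 12.60, 12.69 and 12.89 in combination kidneys, 12.41, 12.55 and 12.63 in DMF100, 12.52, 12.62 and 12.67 in MEF79.2 and 11.94, 12.03 and 12.08 in vehicle. Gstp1, of the pi class, had 12.86, 12.93 and 13.03 in combination kidneys, 12.69, 12.91 and 12.97 in DMF100, 12.76, 12.88 and 13.07 in MEF79.2 and 12.21, 12.29 and 12.53 in vehicle. In both genes all treated arrays lay above all vehicle arrays, with the treated groups overlapping. Gstm1 departed by -0.41 ± 0.05 (SE, limma adjusted p = 4.08e-07) and Gstp1 by -0.51 ± 0.06 (SE, limma adjusted p = 1.01e-06). Gsta4, an alpha class transferase, departed by -0.44 ± 0.08 (limma adjusted p = 0.00133). Gstm1 exceeded DMF100 in the combination by 0.17 (adjusted p = 0.000965), and Gstp1 by 0.06 without a call (adjusted p = 0.311).

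Enzymes and exporters around these reactions departed too. Pgd, which supplies NADPH in the pentose phosphate pathway, had lowest, median and highest levels of 10.87, 11.18 and 11.42 in combination kidneys, 10.86, 11.10 and 11.23 in DMF100, 10.92, 11.02 and 11.20 in MEF79.2 and 10.15, 10.35 and 10.62 in vehicle. The treated ranges nearly coincided above vehicle, and the departure was -0.63 ± 0.10 (limma adjusted p = 0.000166). Pir, pirin, departed by -0.72 ± 0.17 (adjusted p = 0.0202). Gclm, the modifier subunit of the enzyme that starts glutathione synthesis, departed by -0.33 ± 0.08 (adjusted p = 0.0337). With Nav in place of vehicle the departure of Gclm was -0.05 and was not called (limma adjusted p = 0.682). The exporters Abcc4 (-0.58 ± 0.15, adjusted p = 0.038) and Abcc2 (-0.35 ± 0.09, adjusted p = 0.0421) and the heme transporter Slc48a1 (-0.31 ± 0.06, adjusted p = 0.00219) completed the called members.

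Other NRF2 targets were not called, which does not place them at the sum. Hmox1, heme oxygenase 1, had lowest, median and highest levels of 8.80, 9.0 and 9.22 in combination kidneys, 8.43, 8.65 and 8.78 in DMF100, 8.45, 8.63 and 8.79 in MEF79.2 and 7.96, 8.16 and 8.31 in vehicle. The combination arrays lay above all arrays of both single treatments, which lay above vehicle. The departure of Hmox1 was -0.12 ± 0.11 (limma adjusted p = 0.705, 95% interval -0.34 to 0.09), and the combination exceeded DMF100 by 0.36 (adjusted p = 0.00119) and MEF79.2 by 0.37 (adjusted p = 0.00858). Srxn1, which repairs overoxidised peroxiredoxins, departed by -0.14 ± 0.07 (adjusted p = 0.411). Its other probe sets above the filter departed by -0.18, -0.26 and -0.31 (95% intervals -0.32 to -0.03, -0.49 to -0.03 and -0.52 to -0.10). Txnrd1, cytosolic thioredoxin reductase, departed by -0.11 ± 0.04 (adjusted p = 0.157). Gclc, the catalytic subunit of glutathione synthesis, had -0.18 ± 0.22 (adjusted p = 0.816).

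Akr1b8, an aldo-keto reductase, had -0.01 ± 0.28 (adjusted p = 0.993, 95% interval -0.57 to 0.55) while the combination exceeded MEF79.2 by 0.87 (adjusted p = 0.0195). Aldh3a1, an aldehyde dehydrogenase, had lowest, median and highest levels of 5.41, 7.35 and 7.98 in combination kidneys, 4.40, 5.69 and 7.33 in DMF100, 3.82, 4.69 and 5.44 in MEF79.2 and 3.52, 4.27 and 4.37 in vehicle. Its departure was 0.56 ± 0.55 (adjusted p = 0.75), and the combination exceeded MEF79.2 by 2.35 (adjusted p = 0.00118). Gstm3 (-0.67 ± 0.26, adjusted p = 0.207) and the glucuronosyltransferase Ugt2b5 (-1.27 ± 0.38, adjusted p = 0.0813) were not called, although their intervals lay below 0. Pir, Gstm3, Ugt2b5 and Aldh3a1 were below the filter level in all vehicle arrays and were tested through the groups where they are high. Slc7a11, the cystine importer, sat at or next to the lowest value of the table in every array of the 4 groups and was not tested. Nfe2l2, which encodes NRF2, departed by 0.09 ± 0.09 (adjusted p = 0.764). Of 9 measured regulators of the pathway 0 were called, against 1.18% of all genes.

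**Figure D2:**
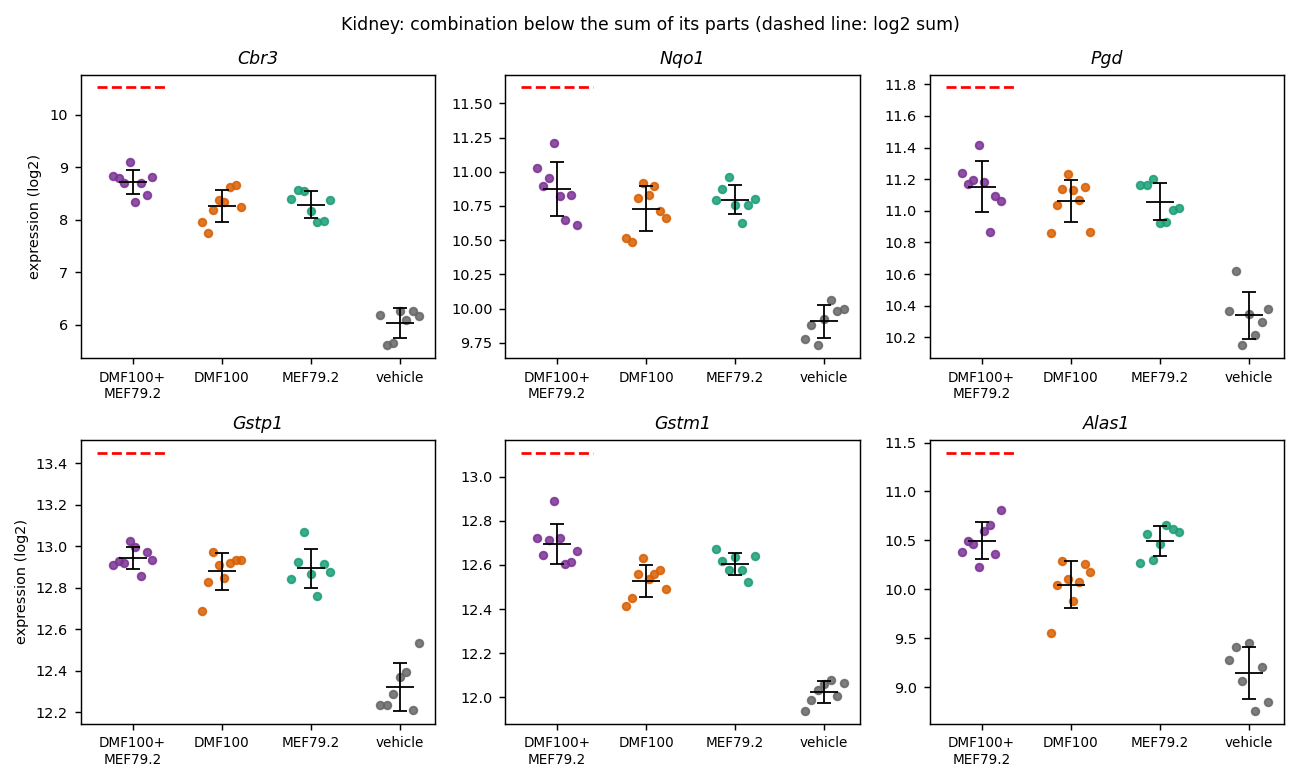
Log2 expression of Cbr3, Nqo1, Pgd, Gstp1, Gstm1 and Alas1 in each kidney array (points, 7 or 8 a group), with the group mean and SD in black and the level given by the sum of the single effects as a red dashed line over the combination. In each panel all 8 combination arrays lie below the dashed line and above the vehicle arrays.

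The DNA before the start of these genes was read for the antioxidant response element, the site that NRF2 binds. Windows of 250 bases before to 50 after each start came from RefSeq (GRCm38.p6), and 93 of the 126 called genes had at least 1. The core TGACNNNGC, searched on both strands, was in a window of 9 of 47 genes with a negative departure (19.1%) and 7 of 46 with a positive one (15.2%). Of all tested genes 1470 of 8658 held it, and of the NRF2 target list 9 of 34. Of the 32851 windows in the table, 12.4% held it. The windows of Gclm (chr3:122245307-122245606, plus strand) and Pir (chrX:164269181-164269480, plus strand) are shown because both genes are called NRF2 targets, with the core in capitals as it reads on this strand.
Gclm: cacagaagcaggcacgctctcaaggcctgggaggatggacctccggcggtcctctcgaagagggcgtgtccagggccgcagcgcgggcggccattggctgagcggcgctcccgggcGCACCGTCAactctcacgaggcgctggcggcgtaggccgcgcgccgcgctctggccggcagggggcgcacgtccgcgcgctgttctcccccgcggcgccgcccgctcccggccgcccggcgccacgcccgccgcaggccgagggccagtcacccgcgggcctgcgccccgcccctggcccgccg
Pir: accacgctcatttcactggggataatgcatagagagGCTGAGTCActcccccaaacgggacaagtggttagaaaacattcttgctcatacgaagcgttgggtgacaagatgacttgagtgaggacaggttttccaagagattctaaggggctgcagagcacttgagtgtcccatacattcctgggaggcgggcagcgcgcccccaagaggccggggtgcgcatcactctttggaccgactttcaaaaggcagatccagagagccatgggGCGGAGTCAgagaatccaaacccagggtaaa
The match in Gclm began 134 bases before the start, while those in Pir began 214 bases before it and at base 20 after it. A match is a description of the letters and shows no binding.

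Alas1, the rate-limiting enzyme of heme synthesis, had lowest, median and highest levels of 10.22, 10.48 and 10.81 in combination kidneys, 9.55, 10.09 and 10.29 in DMF100, 10.27, 10.57 and 10.66 in MEF79.2 and 8.76, 9.21 and 9.45 in vehicle. All treated arrays lay above vehicle, and the combination and MEF79.2 ranges overlapped almost fully (difference 0.00, adjusted p = 0.993). The departure of Alas1 was -0.90 ± 0.18 (limma adjusted p = 0.00498). Ugt2b34, a glucuronosyltransferase, departed by -0.40 ± 0.09 (adjusted p = 0.00908). Both belong to the list of CAR, PXR and AhR targets, the xenobiotic receptors, of which 2 of 7 tested members were called, both negative. Over all genes, 0.57% were called with a negative departure. The list's median departure was 0.03, and 3 of 7 members were below 0.

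Cyp2d9, a cytochrome P450 known for its male bias in mouse liver, had lowest, median and highest levels of 8.57, 9.04 and 9.67 in combination kidneys, 8.24, 8.83 and 9.08 in DMF100, 8.78, 9.08 and 9.50 in MEF79.2 and 6.60, 7.26 and 8.47 in vehicle. The treated groups overlapped, and the highest vehicle array came between the lowest DMF100 array and the rest. Its departure was -1.53 ± 0.33 (limma adjusted p = 0.0106). Slc38a3, a glutamine transporter (-1.04 ± 0.23, adjusted p = 0.0136), Ttr, the thyroxine carrier transthyretin (-0.75 ± 0.19, adjusted p = 0.0328), and C8g, a chain of complement C8 (-0.67 ± 0.13, adjusted p = 0.00219), were also below the sum. Their log2 changes in the combination were 1.20, 1.23 and 1.34, beyond both singles in each, while that of Cyp2d9 (1.64) lay between its singles (1.41 under DMF100 and 1.77 under MEF79.2). C8g was called above DMF100 (0.30, adjusted p = 0.0147) and above MEF79.2 (0.36, adjusted p = 0.0447). The calls of Cyp2d9, Slc38a3, Ttr, C8g, Pir, Ugt2b34 and Abcc2 were lost on the unlogged scale (adjusted p = 0.0626, 0.062, 0.137, 0.103, 0.317, 0.0529 and 0.069).

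In a further set the combination lay nearer vehicle than either single treatment. Lipg, endothelial lipase, had lowest, median and highest levels of 5.12, 5.41 and 5.92 in combination kidneys, 5.64, 6.07 and 6.40 in DMF100, 5.40, 6.01 and 6.45 in MEF79.2 and 4.32, 4.92 and 5.94 in vehicle. Both single groups were called above vehicle (1.03 and 0.98), the combination was not (0.54, adjusted p = 0.0544), and the departure was -1.48 ± 0.31 (limma adjusted p = 0.00747). Tmppe, a transmembrane phosphoesterase protein, departed by -0.63 ± 0.12 (adjusted p = 0.00204). Btc, the EGF receptor ligand betacellulin (-0.66 ± 0.17, adjusted p = 0.0428), Zmym1, a zinc finger protein (-0.66 ± 0.15, adjusted p = 0.0162), and Pprc1, a coactivator of mitochondrial gene expression (-0.66 ± 0.17, adjusted p = 0.0401), also belonged here. The combination changes of these 3 genes against vehicle were 0.01, 0.02 and 0.22, and none of them was called. Another Btc probe set above the filter departed by -0.17 ± 0.16. The departure of Btc was not called with the mean of its probe sets.

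Rbm3, the cold-inducible RNA-binding protein, was 1 of the 9 negative genes whose combination mean lay on the other side of vehicle. Its lowest, median and highest levels were 6.18, 6.39 and 6.85 in combination kidneys, 6.91, 7.47 and 7.67 in DMF100, 6.53, 6.69 and 7.0 in MEF79.2 and 6.30, 6.50 and 7.15 in vehicle. All DMF100 arrays lay above all combination arrays, while the combination overlapped vehicle. DMF100 alone was 0.83 above vehicle (adjusted p = 7.85e-05), MEF79.2 was 0.13 above it without a call (adjusted p = 0.577) and the combination was 0.16 below it, also without a call (-0.16, adjusted p = 0.4). The departure was -1.11 ± 0.19 (limma adjusted p = 0.000996), and the combination stood 0.99 below DMF100 (-0.99, adjusted p = 1.16e-05). Of 20 heat shock and cold-inducible genes tested, Rbm3 was the only one called, against 1.18% of all genes. Cirbp, a relative of Rbm3, had 0.19 ± 0.22 (adjusted p = 0.808).

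The largest of the called positive departures was that of Klf11. This gene, a Krüppel-like zinc finger factor on chromosome 12, had lowest, median and highest levels of 7.99, 8.80 and 9.05 in combination kidneys, 6.91, 7.66 and 8.48 in DMF100, 7.95, 8.12 and 8.97 in MEF79.2 and 7.53, 8.71 and 9.61 in vehicle. All groups overlapped, with DMF100 lowest and the combination within the vehicle range. DMF100 changed Klf11 by -1.13 (adjusted p = 0.000736), MEF79.2 by -0.46 (adjusted p = 0.182) and the combination by -0.11 (adjusted p = 0.729). The departure was 1.47 ± 0.32 (limma adjusted p = 0.00908).

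Klf10, its close relative, had lowest, median and highest levels of 9.32, 9.98 and 10.45 in combination kidneys, 9.38, 9.45 and 9.97 in DMF100, 9.16, 9.65 and 9.79 in MEF79.2 and 9.55, 10.16 and 10.76 in vehicle. The single groups lay low and overlapped the lower part of the vehicle range, and the departure was 0.99 ± 0.20 (limma adjusted p = 0.0051). Klf10 and Klf11 were the 2 called genes among 27 immediate early and Klf genes tested, against 1.18% of all genes. Of the other Klf genes, Klf4 had -0.23 ± 0.06 (adjusted p = 0.0547) and Klf2 -0.48 ± 0.16 (adjusted p = 0.118). Egr1 (0.71 ± 0.56, adjusted p = 0.656) and Fos (0.63 ± 0.76, adjusted p = 0.816) had wide errors.

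Dusp4, a phosphatase that inactivates MAP kinases, had lowest, median and highest levels of 4.95, 5.61 and 5.71 in combination kidneys, 4.28, 4.72 and 5.87 in DMF100, 4.70, 5.19 and 5.30 in MEF79.2 and 4.92, 5.54 and 5.97 in vehicle. DMF100 ranged widest, with 1 array at the level of vehicle, and the departure was 1.17 ± 0.25 (limma adjusted p = 0.00982). Gadd45b, a stress-induced regulator of MAP kinase signalling, departed by 0.81 ± 0.18 (adjusted p = 0.0106). Tgif1, a repressor of TGF-beta signalling, departed by 0.55 ± 0.12 (adjusted p = 0.0133) and was the 1 called gene among 26 TGF-beta and matrix genes. Mcm7, a subunit of the replicative helicase, departed by 0.35 ± 0.08 (adjusted p = 0.0134) and was the 1 called gene among 22 cell cycle genes. Over all genes, 1.18% were called.

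Fbxo32, the muscle ubiquitin ligase atrogin-1, had lowest, median and highest levels of 4.68, 4.76 and 5.12 in combination kidneys, 3.81, 4.59 and 4.94 in DMF100, 4.50, 4.70 and 4.73 in MEF79.2 and 4.68, 5.69 and 5.97 in vehicle. Each treated group was called below vehicle, by -0.74 in the combination, -0.98 under DMF100 and -0.87 under MEF79.2, and the departure was 1.11 ± 0.20 (limma adjusted p = 0.00133). Fbxo32 was above the filter level of 5.10 in 14 of 46 kidney arrays. Within the 4 groups these were vehicle arrays and 1 combination array, so it was tested through the group where it is high. One vehicle array, at 4.68, lay at the level of the treated groups.

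Bcl2l11, the pro-apoptotic protein BIM, had lowest, median and highest levels of 8.98, 9.37 and 9.47 in combination kidneys, 8.52, 8.90 and 9.27 in DMF100, 8.86, 9.16 and 9.38 in MEF79.2 and 8.70, 9.46 and 9.71 in vehicle. The combination lay within the vehicle range, and DMF100 lay lowest, with 1 vehicle array among its values. The departure was 0.70 ± 0.14 (limma adjusted p = 0.00464). Igfbp1, an IGF-binding protein, departed by 0.78 ± 0.21 (adjusted p = 0.0428), and Ddit4, an inhibitor of mTORC1, in the other direction by -0.39 ± 0.09 (adjusted p = 0.0137).

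**Figure D3:**
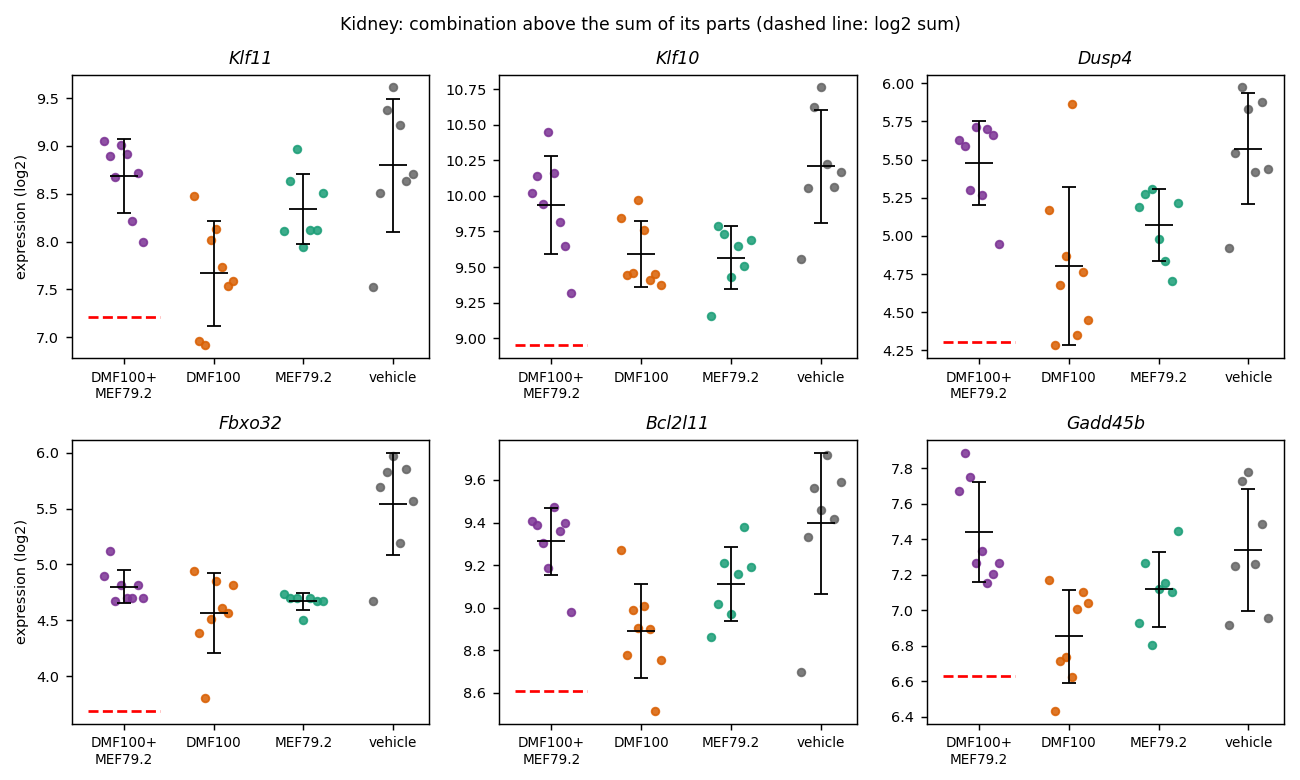
Log2 expression of Klf11, Klf10, Dusp4, Fbxo32, Bcl2l11 and Gadd45b in each kidney array (points, 7 or 8 a group), with the group mean and SD in black and the level given by the sum of the single effects as a red dashed line over the combination. All 8 combination arrays lie above the dashed line in each panel, and the vehicle group spans a wide range, with 1 array low in several panels.

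The other genes with large positive departures had mixed roles. Fam110c, a centrosome-associated protein, had narrow groups, with lowest, median and highest levels of 7.17, 7.26 and 7.38 in combination kidneys, 6.66, 6.84 and 7.12 in DMF100, 6.77, 6.88 and 7.07 in MEF79.2 and 7.02, 7.23 and 7.45 in vehicle. All combination arrays lay above all DMF100 and MEF79.2 arrays and within the vehicle range. It was the positive gene with the smallest p, at 0.73 ± 0.09 (limma adjusted p = 3.21e-06). The combination exceeded DMF100 by 0.43 (adjusted p = 7.16e-05) and MEF79.2 by 0.34 (adjusted p = 0.00858). Another Fam110c probe set above the filter departed by less, 0.19 ± 0.10.

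Chrdl1, a BMP antagonist, departed by 0.94 ± 0.21 (adjusted p = 0.0134), with changes against vehicle of -0.98 in the combination, -0.89 under DMF100 and -1.03 under MEF79.2. Edar, a TNF receptor family member (1.06 ± 0.28, adjusted p = 0.0474), and Rhebl1, a relative of the mTORC1 activator Rheb (0.82 ± 0.19, adjusted p = 0.0156), also departed. Nemp2, a nuclear envelope protein (0.77 ± 0.13, adjusted p = 0.000723), and Gas2l3, a cytoskeletal linker (0.76 ± 0.20, adjusted p = 0.0428), had similar sizes. The carnitine transporter Slc22a21 (0.72 ± 0.17, adjusted p = 0.0178) and the RNA-editing cytidine deaminase Apobec1 (0.71 ± 0.17, adjusted p = 0.0254) completed the 15 largest.

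Of 21 interferon-stimulated genes tested, 2 were called with positive departures and 0 with negative ones, against 0.607% and 0.57% of all genes. The list's median departure was 0.25 against 0.003 for all genes. The list's median changes against vehicle were -0.21 in the combination, -0.25 under DMF100 and -0.19 under MEF79.2. Rtp4, an interferon-induced chaperone for receptors, had lowest, median and highest levels of 6.55, 6.79 and 7.09 in combination kidneys, 6.28, 6.53 and 6.74 in DMF100, 6.27, 6.56 and 6.91 in MEF79.2 and 6.71, 7.04 and 7.23 in vehicle. The treated groups overlapped each other and the lower vehicle arrays. Rtp4 departed by 0.66 ± 0.13 (limma adjusted p = 0.00314) and Rsad2, the antiviral enzyme viperin, by 0.26 ± 0.07 (adjusted p = 0.0428). Oasl2 (0.38 ± 0.12) and Usp18 (0.50 ± 0.16) were not called (adjusted p = 0.0994 each).

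The promoter windows were read for the forkhead motif GTAAACA in the same way. It was in a window of 9 of 46 genes with a positive departure (19.6%), 1 of 47 with a negative one (2.13%) and 286 of 8658 tested genes (3.30%). Counted by window, these were 9 of 61, 1 of 63 and 300 of 11116. Of all windows in the table, 3.65% held it. The 9 genes were Bcl2l11, Cfap20, Dhx40, Hbp1, Mbtps1, Mcm7, Rsad2, Tmem140 and Ypel3, and the share was seen among 6 motifs searched, so it is given as a count with no test. The other motifs were CACGTG, TGACGTCA, GGGGTGTGG and GTCTAGAC, and no printed match overlapped a match of another motif. The windows of Bcl2l11 (chr2:128125788-128126087, plus strand) and of the HMG-box repressor gene Hbp1 (chr12:31950196-31950495, minus strand), which departed by 0.28 ± 0.07 (adjusted p = 0.0183), are shown with the motif in capitals.
Bcl2l11: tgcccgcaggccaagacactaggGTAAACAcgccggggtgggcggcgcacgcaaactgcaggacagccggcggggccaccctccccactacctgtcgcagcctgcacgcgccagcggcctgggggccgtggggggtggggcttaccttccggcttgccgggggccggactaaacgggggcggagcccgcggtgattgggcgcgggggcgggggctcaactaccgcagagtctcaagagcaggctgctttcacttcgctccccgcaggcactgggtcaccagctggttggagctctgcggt
Hbp1: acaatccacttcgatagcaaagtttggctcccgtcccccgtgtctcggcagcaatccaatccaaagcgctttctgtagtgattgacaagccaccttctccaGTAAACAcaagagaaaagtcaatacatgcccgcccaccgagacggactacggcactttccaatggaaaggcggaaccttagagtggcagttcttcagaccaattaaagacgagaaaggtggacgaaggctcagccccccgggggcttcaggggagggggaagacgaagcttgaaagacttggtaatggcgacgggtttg
The motif began 227 bases before the start of Bcl2l11 and 149 bases before that of Hbp1. Its presence describes these letters only.

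Of 20 metallothionein and zinc transporter genes tested, 0 were called, against 1.18% of all genes, and their median departure was -0.02. Mt1, the zinc-binding metallothionein 1, had lowest, median and highest levels of 11.93, 12.09 and 12.20 in combination kidneys, 11.72, 11.92 and 12.07 in DMF100, 11.65, 11.77 and 12.04 in MEF79.2 and 11.70, 11.73 and 11.87 in vehicle. Its departure was 0.11 ± 0.09 (limma adjusted p = 0.678). Another Mt1 probe set above the filter departed by 0.77 ± 0.30 (95% interval 0.17 to 1.38). Slc30a1, the zinc exporter of the plasma membrane, had -0.25 ± 0.07 (adjusted p = 0.057) and was called under 7 of 12 alternatives, with adjusted p from 0.0022 to 0.0801 over all of them. Of 24 calcium and magnesium genes, 1 was called: Cldn16, a tight junction protein of the thick limb needed for magnesium uptake, departed by -0.36 ± 0.09 (adjusted p = 0.044).

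Of 41 proximal tubule transporters and enzymes, 1 was called, the exporter Abcc2, against 1.18% of all genes. Slc10a2, the sodium-dependent bile acid transporter, had lowest, median and highest levels of 7.67, 8.26 and 8.59 in combination kidneys, 8.72, 8.90 and 9.63 in DMF100, 7.98, 8.53 and 8.83 in MEF79.2 and 9.45, 10.10 and 10.38 in vehicle. The combination lay below all DMF100 arrays, and the departure was 0.68 ± 0.25 (limma adjusted p = 0.17). It was called with the mean of its probe sets (adjusted p = 0.0412) and on the unlogged scale (adjusted p = 0.00696). On that scale the sum of the single effects was -0.13 times the vehicle level. No array can lie below that, so the unlogged departure could only be positive and its call adds no support. Hdc, histidine decarboxylase, had a large estimate with a wide error, 1.61 ± 0.45 (adjusted p = 0.057).

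The lists of glutathione and thioredoxin genes (20 tested), fumarate metabolism (18), circadian clock (19), ATF4 and ER stress (26) and PPAR-alpha targets (23) held 0 called genes. The same was true of kidney injury (14), respiratory chain (38), proteasome (31) and renin and salt transport genes (27). Over all genes 1.18% were called, a share at which most lists of these sizes hold none. Their medians ran from -0.07 for glutathione and thioredoxin genes to 0.12 for PPAR-alpha targets. One gene each was called in the lists of glucocorticoid-responsive genes (Ddit4, of 20), cholesterol and fatty acid synthesis (Hmgcs1, the cytosolic HMG-CoA synthase, -0.33 ± 0.09, adjusted p = 0.0491, of 26) and hypoxia (P4ha2, a collagen prolyl hydroxylase, -0.45 ± 0.12, adjusted p = 0.0453, of 21). Fh1, fumarase, had 0.05 ± 0.06 (adjusted p = 0.822), and Hcar2, the fumarate-binding receptor, was at or near the lowest value and was not tested.

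**Figure D4:**
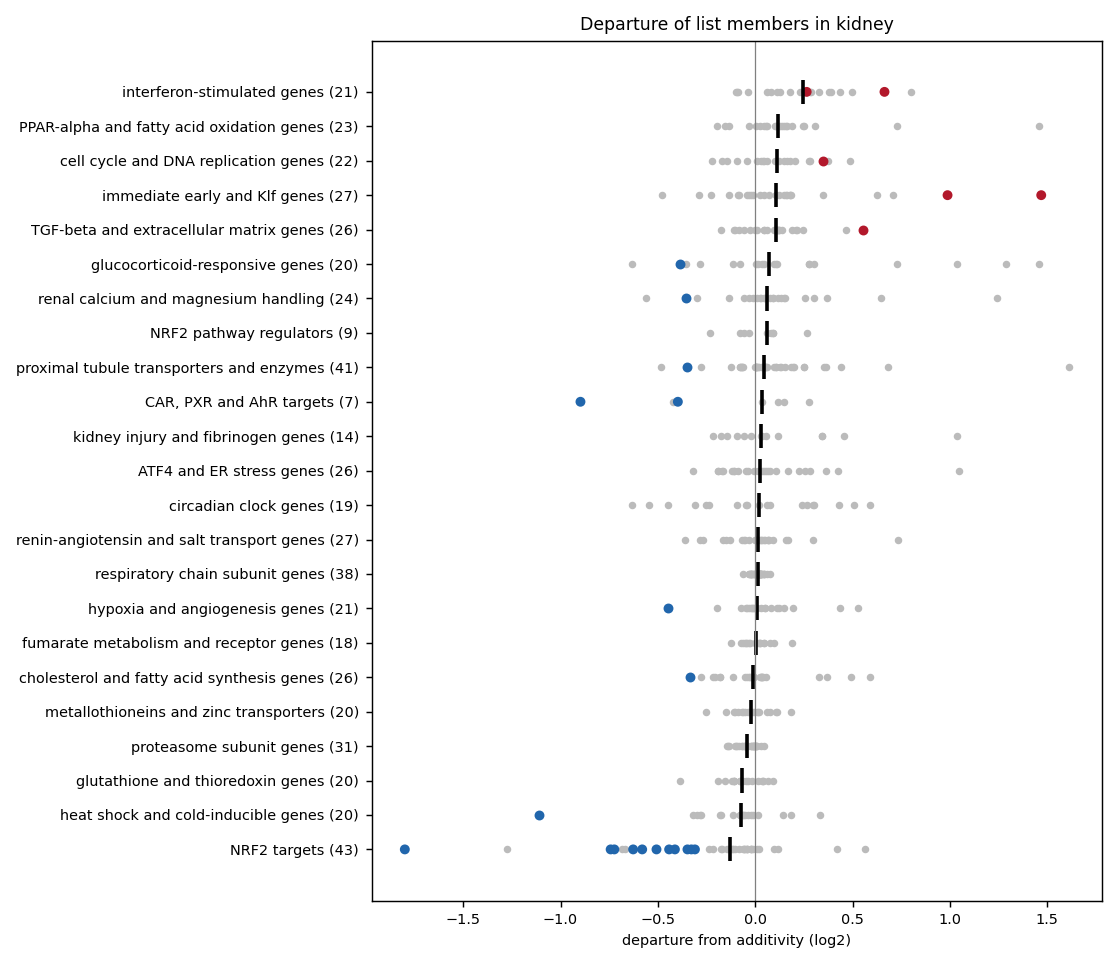
Departure from additivity (log2, x axis) of each tested member of 23 gene lists (rows, number tested in brackets, ordered by median). Grey points were not called, black ticks are list medians, and blue and red points were called below and above 0. NRF2 targets hold 11 of the blue points and 0 red ones, while 0.57% and 0.607% of all genes were called below and above 0.

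Markers of cell types were measured beside these genes. Their part in the results was not tested. Of all markers tested, 1 was called, Cldn16, against 1.18% of all genes. The mean departure of a list was 0.52 for adipocyte, 0.38 for urothelium and 0.31 for macrophage markers, and 0.03 for proximal tubule markers. Macrophage markers had summed levels of 9.83 to 10.23 in combination kidneys, 9.87 to 10.28 in DMF100, 9.62 to 10.08 in MEF79.2 and 9.77 to 10.67 in vehicle. Of 8 macrophage markers 6 were tested, with Adgre1 and Cx3cr1 below the filter. Urothelial markers ran from 8.69 to 9.38 in combination kidneys, 8.23 to 8.94 in DMF100, 8.25 to 9.03 in MEF79.2 and 8.08 to 8.98 in vehicle, over 6 of 6 markers. Adipocyte markers spread most, from 9.92 to 12.26 in combination kidneys, 9.68 to 11.97 in DMF100, 7.68 to 11.67 in MEF79.2 and 8.55 to 12.69 in vehicle, over 4 measured markers.

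The array of vehicle replicate 1 was the lowest of 7 vehicle arrays in 31 of the 65 positive genes and the highest in 21 of the 61 negative ones. The array of DMF100 replicate 9 was the highest of 8 DMF100 arrays in 29 positive genes and the lowest in 27 negative ones. Without vehicle replicate 1, 210 genes were called, 114 positive and 96 negative, and 122 of the 126 were among them. Without vehicle replicate 6 or 8 the positive count was 42 or 43. Leaving out each of the 30 arrays in turn gave 87 to 210 calls, and 71 of the 126 genes were called every time. Single genes were followed through these fits only for the 43 called genes picked by the naming rule given under processing. Other called genes in the text, such as Abcc4, Gsta4, Slc48a1 and Hbp1, were not followed singly. Among the 43, Edar, Igfbp1, Gas2l3, Apobec1, Rsad2, Ttr, Btc, Pprc1, Cldn16, Hmgcs1, Abcc2, P4ha2 and Gclm lost the call in at least 1 of these fits, with adjusted p up to 0.0862. Edar, Gas2l3, Pprc1 and Cldn16 also lost it on the unlogged scale (adjusted p = 0.0541, 0.0634, 0.0541 and 0.0529).

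Genes were also chosen by the contrast of DMF179.2 with Nav, groups whose means do not enter the departure. Their arrays do enter the filter and the estimate of spread, and with the 4 groups alone 102 of the 126 calls were shared. Between DMF179.2 and Nav, 27 genes were at least 2-fold higher, and 7 of these were called with a negative departure and 0 with a positive one, with a median departure of -0.23. Another 23 genes were at least 2-fold lower, and 1 was called, with a positive departure, with a median of 0.37. Of all 2540 genes called higher (23.7%), 41 had negative and 1 positive calls, with a median of -0.04. Of the 3098 called lower (28.9%), 36 had positive and 1 negative calls, with a median of 0.04. Over all genes, 0.57% had negative and 0.607% positive calls. These 2 larger sets changed little against vehicle. Median changes of the higher set were 0.03 under DMF100, -0.05 under MEF79.2 and -0.07 in the combination. Those of the lower set were -0.02, 0.04 and 0.06. The 2-fold limit was set after values were seen.

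The same contrast was fitted in the other tissues. It called 81 genes in inguinal lymph node (0.767%), 35 in mesenteric lymph node (0.328%), 32 in jejunum (0.295%), 19 in brain (0.177%), 2 in blood (0.0193%) and 0 in spleen, where limma found 720 genes at an unadjusted p under 0.05. Of the 126 kidney genes, 104 were tested in inguinal node and 8 were called there, each with the kidney's sign: Btbd10, Fbxo32, Heatr3, Klf10, Klf11, Orc4, Poli and Rbm3. Rbm3 was also called in mesenteric node (-0.80 ± 0.16, adjusted p = 0.0111), jejunum (-0.75 ± 0.17, adjusted p = 0.0391) and brain (-1.12 ± 0.25, adjusted p = 0.0353). The tissues may come from the same mice, so calls shared between tissues are not independent repeats.

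Differences between tissues were tested as if the arrays were independent. Most animal numbers recur in the other tissues and may mark the same mice, which this fit does not take into account. The kidney departure differed from that in inguinal node in 9 of 9399 genes (0.0958%) and from that in jejunum in 22 of 9695 (0.227%). Cbr3 differed by -1.87 from inguinal node (limma adjusted p = 1.25e-05) and by -2.00 from jejunum (adjusted p = 0.0176), and Gstp1 by -0.51 and -0.52 (adjusted p = 0.000544 and 0.000277). Pgd differed from jejunum by -0.70 (adjusted p = 0.00153). Klf10 had a departure of 0.54 ± 0.14 in inguinal node (adjusted p = 0.0393) and -0.28 ± 0.11 in jejunum (adjusted p = 0.308), and its kidney departure exceeded the jejunal one by 1.27 (adjusted p = 0.000768). Dusp4 (1.44, adjusted p = 0.0261), Gadd45b (1.43, adjusted p = 0.000363) and Gas2l3 (1.38, adjusted p = 0.00296) exceeded jejunum too. Bcl2l11 exceeded inguinal node by 0.78 (adjusted p = 0.0145). For Nqo1 neither difference was called (-0.58, adjusted p = 0.306, and -0.20, adjusted p = 0.875).

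**Figure D5:**
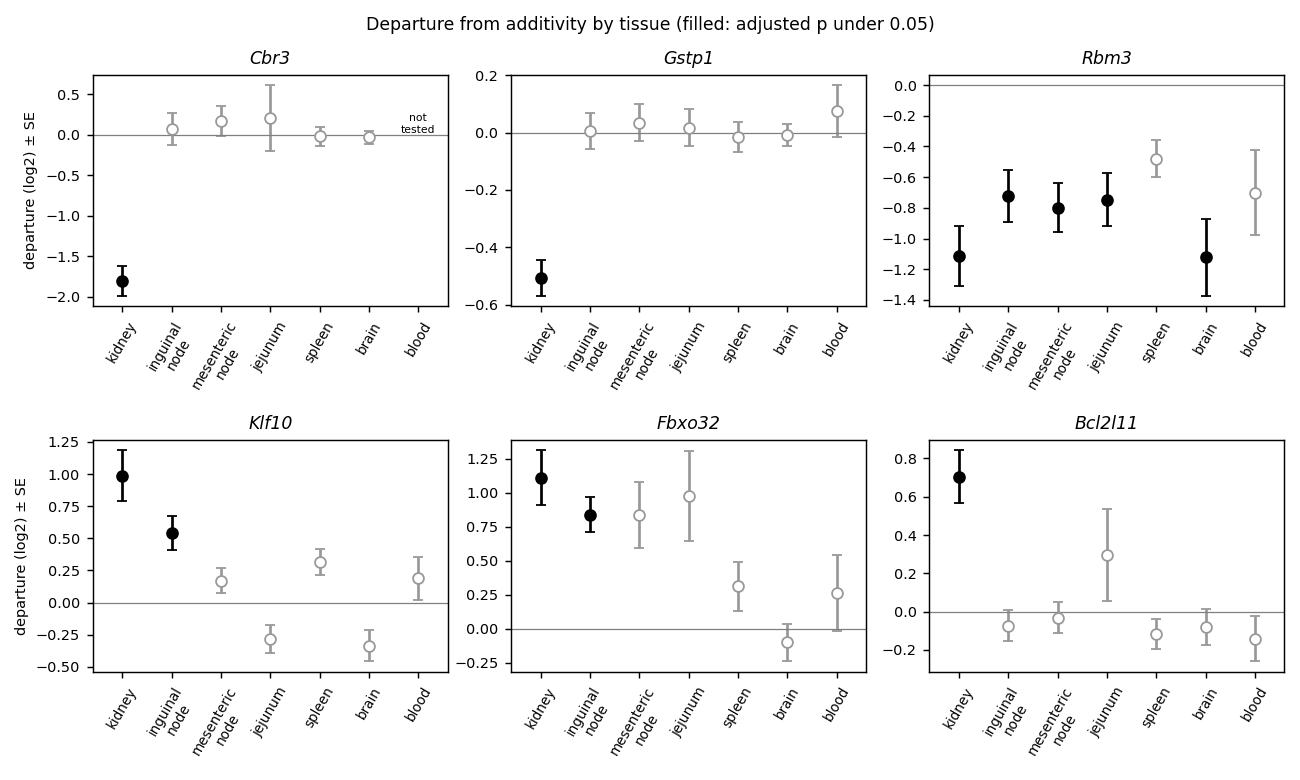
Departure from additivity (log2, y axis) ± SE of Cbr3, Gstp1, Rbm3, Klf10, Fbxo32 and Bcl2l11 in 7 tissues, filled where the limma adjusted p was under 0.05. Cbr3 stands at -1.80 in kidney and near 0 in the other tissues where it was tested, while Rbm3 lies below 0 in all 7 tissues.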

How the data were processed

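Gene expression was measured on 1-colour arrays, 46 of them kidney. The authors deposited normalized log2 values per probe set in 1 table. The submitters' processing notes name RMA, GCRMA, R 2.11.1 and limma 3.4.5, with no role given here. No further normalization was applied.

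Of 45141 probe sets, 28898 carry 1 gene symbol, and each of 17097 genes was read from its probe set with the highest mean. Genes above the kidney median (5.10) in at least 5 arrays were tested (10706). The departure was a contrast of group means fitted on all 46 kidney arrays, sharing 1 estimate of spread (R 4.3.3, limma 3.58.1, lmFit and eBayes), with Benjamini-Hochberg adjustment over all genes tested. All adjusted p-values are limma's. The number of arrays limits the precision. The text names the 15 largest called genes in each direction, up to 4 called members per list and a set of genes chosen by name. The members and lists were chosen with earlier results of these data known. In simulated data with 10706 genes the fit recovered 54% of genes changed 1.25-fold and 88% of those changed 1.5-fold, with 3 false calls of 170. The simulated noise was independent between genes and arrays and held no effect of an array shared by many genes. Its share of false calls therefore need not hold for the 126 kidney calls. Alternatives covered the filter, scaling, probe set choice, weights, covariate, scale, the baseline group and each array left out.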

Additional observations from a re-analysis of the deposited data

Results flagged for a closer look

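In 19 of 228 groups of arrays, spread over 18 named genes, 1 array's gap to the nearest other was large for the group's range by Dixon's test, while chance alone gives about 1 in 20 groups. In the combination these were Rhebl1 in replicate 32 (log2 level 6.33), Ttr in replicate 33 (12.28), Gstm1, Ugt2b34 and Ugt2b5 in replicate 35 (12.89, 12.15 and 7.46), P4ha2 in replicate 37 (6.74) and Ddit4 in replicate 39 (11.17). Under DMF100 they were Ugt2b5 in replicate 15 (5.73) and Slc30a1 in replicate 12 (11.50). Under MEF79.2 they were Fbxo32 in replicate 28 (4.50), Pprc1 and Rsad2 in replicate 25 (7.70 and 11.18) and Hmgcs1 in replicate 31 (7.29). In vehicle they were Igfbp1 and Bcl2l11 in replicate 1 (10.84 and 8.70), Gstm3 and Gclm in replicate 2 (3.77 and 10.17; the nearest Gstm3 array was at 3.79, so that gap is small), Mt1 in replicate 3 (11.87) and Aldh3a1 in replicate 6 (3.52).

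In 10 tests of named genes the kidney departure differed from that of another tissue. Against inguinal lymph node the differences were 0.78 for Bcl2l11, -1.87 for Cbr3 and -0.51 for Gstp1. Against jejunum they were 1.44 for Dusp4, 1.27 for Klf10, 1.43 for Gadd45b, 1.38 for Gas2l3, -2.00 for Cbr3, -0.70 for Pgd and -0.52 for Gstp1.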

How the results depend on the processing

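Counts moved by over 1.5 times in 3 of the alternatives other than leaving out 1 array. Array weights called 596 genes (324 positive, 272 negative), Nav in place of vehicle called 4258 (2528 positive, 1730 negative), and the mean of each gene's probe sets called 94 negative genes; the cause was not tested. Leaving out each array in turn gave 87 to 210 calls, 42 to 114 positive and 41 to 96 negative. Of the 43 called genes picked by the naming rule, 30 were called in every such fit. Under each of the 12 other alternatives that tested them, 22 were called. With Nav in place of vehicle the calls of Gclm, Igfbp1, Slc38a3, Ttr, Pprc1, Cldn16 and Rsad2 were lost. The sign turned for Akr1b8 with array weights (0.057), hybridisation controls as a covariate (0.024), Nav (0.13), unlogged values (0.41), without the array of lowest correlation in each group (0.036) and with 1 array left out (-0.15 to 0.13). It turned for Hmox1 with Nav (0.10) and unlogged values (0.0065), and with Nav for Gclc (0.15) and Nfe2l2 (-0.26). None of these 4 genes was called in the fit reported. At the median error a departure of 0.33 passes the test. No paired analysis was possible because the kidney groups share no animal numbers.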
